A study of Chlamydomonas reinhardtii with 12 samples.

Results

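PSAD and PSAE are small subunits on the stromal side of photosystem I, the chlorophyll protein complex that uses light to reduce ferredoxin in the chloroplast. Both are encoded in the nucleus, made in the cytosol and imported into the chloroplast. PSAD forms much of the docking surface for ferredoxin and helps to hold the stromal side of the complex together, while PSAE borders that surface and assists ferredoxin reduction and cyclic electron flow. The PSAD gene of the green alga Chlamydomonas reinhardtii is also known to genetic engineers, because its promoter is widely used to drive nuclear transgenes.

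The 2 genes were chosen from the annotation of the array, as the spots assigned to the locus tags CHLRE_05g238332v5 (PSAD) and CHLRE_10g420350v5 (PSAE). Each locus had 4 spots, so that 8 of 11520 spots, or 2 of 2880 elements printed in 4 copies, were theirs. The PSAD element was that of spot 544 and the PSAE element that of spot 1180, with their copies 2880 spots apart. Interest in this pair arose from earlier results on the 6 h samples. The 6 h ratios of PSAD and PSAE and every change of theirs that ends at 6 h are therefore given as values without a test, and tests of the pair are confined to low light, to 1 h and to the change between them.

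The samples came from a shift of cultures from low light to high light. Wild type (strain CC-125) and npq1 lor1, a double mutant whose first mutation blocks zeaxanthin formation and whose second blocks lutein formation, were hybridised together on two-colour cDNA arrays of total RNA. Xanthophylls such as these protect the photosynthetic membrane against excess light. The groups were cultures kept in low light, cultures after 1 h of high light and cultures after 6 h of high light, each with both strains, 2 biological samples and 2 slides per biological sample with the channels exchanged, 12 slides in all. Light intensities, media and the number of clones behind each strain were not stated in the labels. RNA was from whole cultures, so fewer cells with a transcript and less transcript per cell cannot be told apart, and a ratio gives no level in either strain.

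Slides differed in quality. Spots with a deposited value of exactly 0, read as not measured, made up 7.36% to 43.4% of a slide. The slides of 1 h and of 6 h with wild type in channel 1 from biological sample 2 stood apart, with 43.4% and 43.2% of such spots. Across all elements the slides exchanged within a sample correlated with r between -0.47 and 0.13, although the labels describe their ratios as turned the same way. Elements share slides and dyes and are not independent points. The dye of channel 1 is not named. The titles put wild type first, and the ratio runs that way on every slide if channel 1 was always Cy3, so a negative log2 ratio is likely to stand for more transcript in npq1 lor1. If the slides with the mutant in channel 1 had not been turned as described, a ratio of the same sign on both slides would be a dye effect. That reading was not tested. It applies to every strain ratio given here, of other elements as of PSAD and PSAE, and to the counts of elements called.

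PSAD had negative ratios throughout. Of its 48 spots on the 12 slides 47 had a value, and all 47 were negative, between -0.87 and -0.0047 on the log2 scale. PSAE had 46 measured spots, of which 39 were negative and 7 positive, between -0.99 and 0.53. The 7 positive PSAE spots all lay in low light or at 1 h, where 24 of its 31 measured spots were negative, and at 6 h every measured PSAE spot was negative. These counts of spots take in 6 h, which was in view when the pair was picked. Copies on a slide and exchanged slides share RNA and are not independent. The share of elements with such counts was not taken, so nothing is read from them. The SD over the copies on a slide had a median of 0.118 for PSAD and 0.112 for PSAE. The widest spread was that of PSAE on the 1 h slide of biological sample 2 with wild type in channel 1, with an SD of 0.627 over 3 spots.

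**Figure D1:**
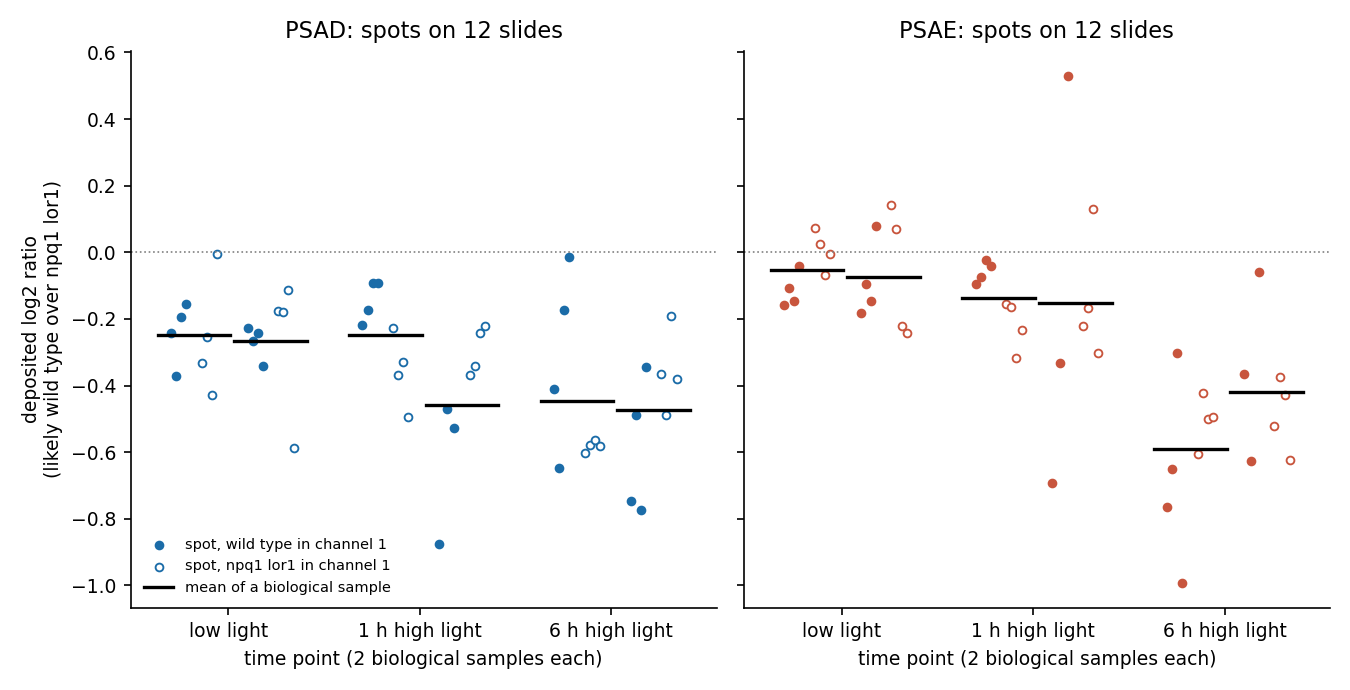
Deposited log2 ratio of every measured spot (vertical axis) at the 3 time points, for PSAD on the left and PSAE on the right. Filled points are spots of slides with wild type in channel 1, open points those with npq1 lor1 there, and each black line is the mean of a biological sample. All 47 PSAD spots lie below 0, while the PSAE spots straddle 0 in low light and lie below it at 6 h. The genes were picked with the 6 h ratios in view.

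In low light the PSAD ratio was -0.25 in biological sample 1 and -0.27 in biological sample 2. The exchanged slides of sample 1 averaged -0.24 with wild type in channel 1 and -0.25 with the mutant there, and those of sample 2 averaged -0.27 and -0.26. Before the light shift, then, the 4 slides gave nearly the same deposited value whichever strain was in channel 1. Measured from each slide's own median, PSAD lay at -0.40 in sample 1 and -0.33 in sample 2 with wild type in channel 1. With the mutant there it lay at -0.10 and -0.16. The place of PSAD among the spots of a slide thus differed with orientation. The mean of the deposited ratios was -0.26 ± 0.013 (SD, n = 2), which is 1.20-fold from equality. It did not pass limma's test over all elements (adjusted p = 0.249, unadjusted p = 0.00616), and the 95% interval of the fit ran from -0.42 to -0.09. The test uses 1 spread per element pooled over the 3 time points. Fitted to the low light samples alone, the limma adjusted p was 0.0245, and 114 of 2396 elements passed. The SE of that fit was 0.0491, above the SD of 0.013 between the 2 samples, so it came mostly from the spread of all elements.

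The PSAE ratio in low light was -0.05 in sample 1 and -0.07 in sample 2. The slide means were -0.11 and 0.0065 for sample 1 and -0.09 and -0.06 for sample 2, in each case with wild type in channel 1 first. One slide of the 4 was thus on the other side of 0. The mean of -0.06 ± 0.015 (SD, n = 2) did not pass the test (limma adjusted p = 0.965). Its 95% interval ran from -0.22 to 0.09. Of 2396 elements tested in low light 0.334% passed, and neither PSAD nor PSAE was among them.

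After 1 h of high light the PSAD ratio was -0.25 in sample 1 and -0.46 in sample 2. The 2 samples differed by 0.209 on the log2 scale, more than the 0.129 that was the median over all elements at this time point. The slides of sample 1 averaged -0.14 and -0.35, and those of sample 2 averaged -0.62 and -0.29, with wild type in channel 1 first. The value of -0.62 rests on 3 spots of the slide with 43.4% zeros. The mean was -0.35 ± 0.15 (SD, n = 2), 1.28-fold from equality, and it missed the threshold (limma adjusted p = 0.0683, unadjusted p = 8.88e-04, 95% interval -0.52 to -0.19). It passed in 5 of 20 processing alternatives. Among them were the slides with npq1 lor1 in channel 1 alone (-0.32, limma adjusted p = 0.0441), which leave out the slide with 43.4% zeros. In that setting 453 of 2624 elements passed, against 16 of 2272 in the main fit. The medians of those slides over all spots were themselves negative, at -0.17 and -0.045, so this call does not set PSAD apart. Without sample 2 the ratio was -0.25 (adjusted p = 0.639).

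The PSAE ratio at 1 h was -0.14 in sample 1 and -0.15 in sample 2, closer together than those of PSAD. All 4 slide means were negative, at -0.06 and -0.22 in sample 1 and -0.16 and -0.14 in sample 2. The value of -0.16 averages 3 spots, at -0.69, -0.33 and 0.53, of the slide with 43.4% zeros. The small SD between the samples therefore understates the spread of the spots. The mean PSAE ratio was -0.15 ± 0.0099 (SD, n = 2), 1.11-fold from equality, and did not pass the test (limma adjusted p = 0.463, 95% interval -0.30 to 0.01). It was -0.20 with the median of the copies. At 1 h 0.704% of 2272 elements passed. Here too neither of the genes was among them.

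From low light to 1 h the PSAD ratio went from -0.26 to -0.35, a change of -0.10 (SE 0.10, limma adjusted p = 0.949, 95% interval -0.33 to 0.13). The PSAE ratio went from -0.06 to -0.15, a change of -0.08 (SE 0.10, limma adjusted p = 0.949, 95% interval -0.30 to 0.14). For PSAD the 2 time points overlapped, since sample 1 at 1 h lay within the range of the low light samples. For PSAE both samples at 1 h lay below both in low light, with a gap of 0.064. How many of all elements were apart in this way was not counted, so nothing is read from the gap. Neither change passed the test, as was so for all but 1 of 2195 elements (0.0456% passed).

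After 6 h of high light the genes had similar ratios. The PSAD ratio was -0.45 in sample 1 and -0.47 in sample 2, with slide means of -0.31 and -0.58 in sample 1 and of -0.59 and -0.36 in sample 2. The order of the exchanged slides was opposite in the 2 samples, and their averages fell close together. The mean was -0.46 ± 0.018 (SD, n = 2), 1.37-fold from equality. The PSAE ratio was -0.59 in sample 1 and -0.42 in sample 2, with slide means of -0.68 and -0.51 in sample 1 and of -0.35 and -0.49 in sample 2. Its mean was -0.50 ± 0.12 (SD, n = 2), 1.42-fold from equality. Among the 79 locus-tagged elements tested at 6 h, PSAE had the 6th and PSAD the 7th most negative ratio, and with the sign turned on slides with npq1 lor1 in channel 1 they would stand 29th and 36th. Negative ratios that passed the test made up 1.68% of 2139 elements at 6 h, and nothing is read from this share because the pair was picked with the 6 h ratios in view.

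From low light the PSAE ratio went through -0.06, -0.15 and -0.50, so that the difference to the time point before was -0.08 at 1 h and -0.36 at 6 h. Both PSAE samples at 6 h lay below all 4 earlier ones. PSAD went through -0.26, -0.35 and -0.46, with differences of -0.10 and -0.11, and its 1 h and 6 h samples overlapped. The PSAD difference from 1 h to 6 h turned on the 1 h samples: it was -6.1e-04 without sample 1 of 1 h, -0.21 without sample 2, and -0.22 after subtracting a running median over neighbouring spots. Both PSAD samples at 6 h lay below both in low light, with a gap of 0.179. How many of all elements were likewise apart at 6 h was not counted, and the pair was picked with the 6 h ratios in view. Nothing is read from these separations of PSAE and PSAD. From low light to 6 h the difference was -0.44 for PSAE and -0.20 for PSAD. After that subtraction these were -0.48 and -0.35, so the gap between the genes depended on that choice. Over all elements the median change from low light to 6 h was 0.04.

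**Figure D2:**
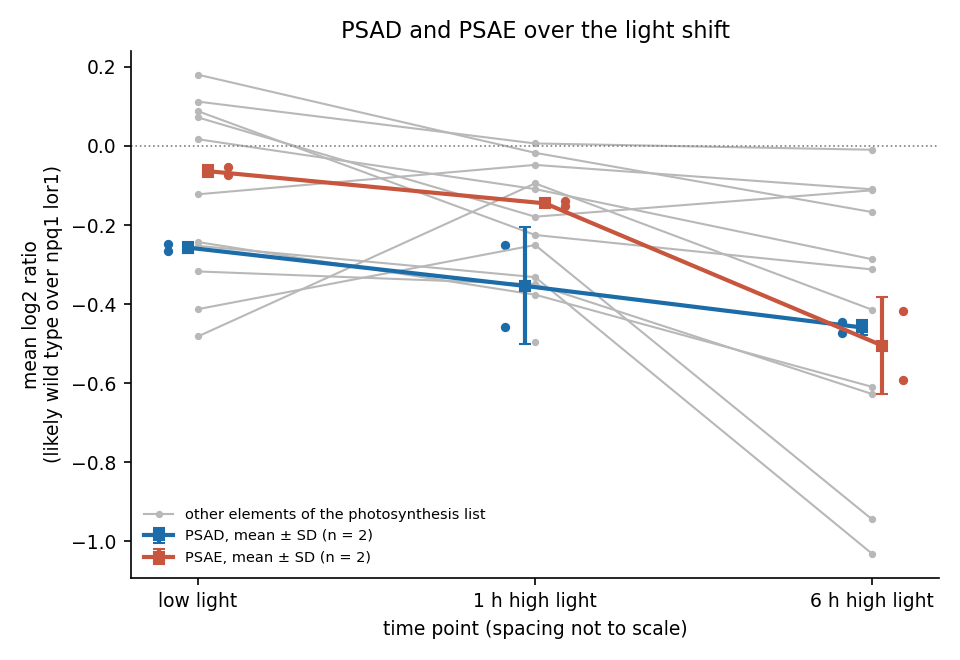
Mean log2 ratio (vertical axis) at the 3 time points of the light shift, with squares for the means of PSAD and PSAE, bars for the SD and small points for the 2 biological samples. Grey lines are the other elements of the photosynthesis list. PSAE starts near 0 at -0.06 and ends at -0.50, while PSAD starts at -0.26 and ends at -0.46. The genes were picked with the 6 h ratios in view.

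PSAD and PSAE could be set against each other within each biological sample. PSAD minus PSAE was -0.19 in both samples of low light, and -0.11 and -0.31 at 1 h. It was 0.15 and -0.05 at 6 h. PSAD thus had the more negative ratio in all 4 samples of low light and 1 h, with a mean difference of -0.20 ± 0.08 (SD, n = 4), and in 1 of 2 samples at 6 h. An exact permutation test over signs, two-sided, gave p = 0.125 for the 4 samples, which is the smallest that 4 samples allow, so this difference cannot reach 0.05. The comparison was chosen after its values were seen.

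The signs of slide means were counted in low light and at 1 h, apart from the 6 h slides. PSAD was negative on all 8 slides of low light and 1 h, as were 1.37% of the 2195 elements with a value on all 8. Slides with wild type in channel 1 had positive medians (0.04 to 0.17) and slides with the mutant there had negative ones (-0.17 to -0.02), so the same was counted from each slide's own median. PSAD lay below the median of the slide on all 8, as did 1.55% of elements. PSAE was negative on 7 of the 8, where 3.37% of elements were negative on 7 or more, and below the slide median on 6, where 12.1% were on 6 or more. The difference between the genes in these counts was not tested. The 2 slides where it was above the median were the low light slides with npq1 lor1 in channel 1, where 77.3% and 59.8% of elements had a lower value. On those same slides 32.2% and 32.8% of elements had a lower value than PSAD.

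The exchanged slides show how far a gene depends on orientation. Over all elements the slide with wild type in channel 1 exceeded the other by a median of 0.147 to 0.347 in the 6 biological samples. For PSAD that difference was 0.014 and -0.0058 in low light, 0.211 and -0.330 at 1 h, and 0.270 and -0.232 at 6 h. For PSAE it was -0.12 and -0.02 in low light, 0.16 and -0.02 at 1 h, and -0.17 and 0.14 at 6 h. Neither gene had a fixed sign of this difference, and in 11 of the 12 pairs of slides, 6 of PSAD and 5 of PSAE, both slide means were negative. That count takes in the 6 h pairs, which were in view when the genes were picked. The share of such pairs over all elements was not counted, so nothing is read from it. With the sign turned on the slides with npq1 lor1 in channel 1, the means of PSAD were 0.0020, -0.03 and 0.0096 in the order of time, and those of PSAE were -0.04, 0.034 and -0.0090.

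**Figure D3:**
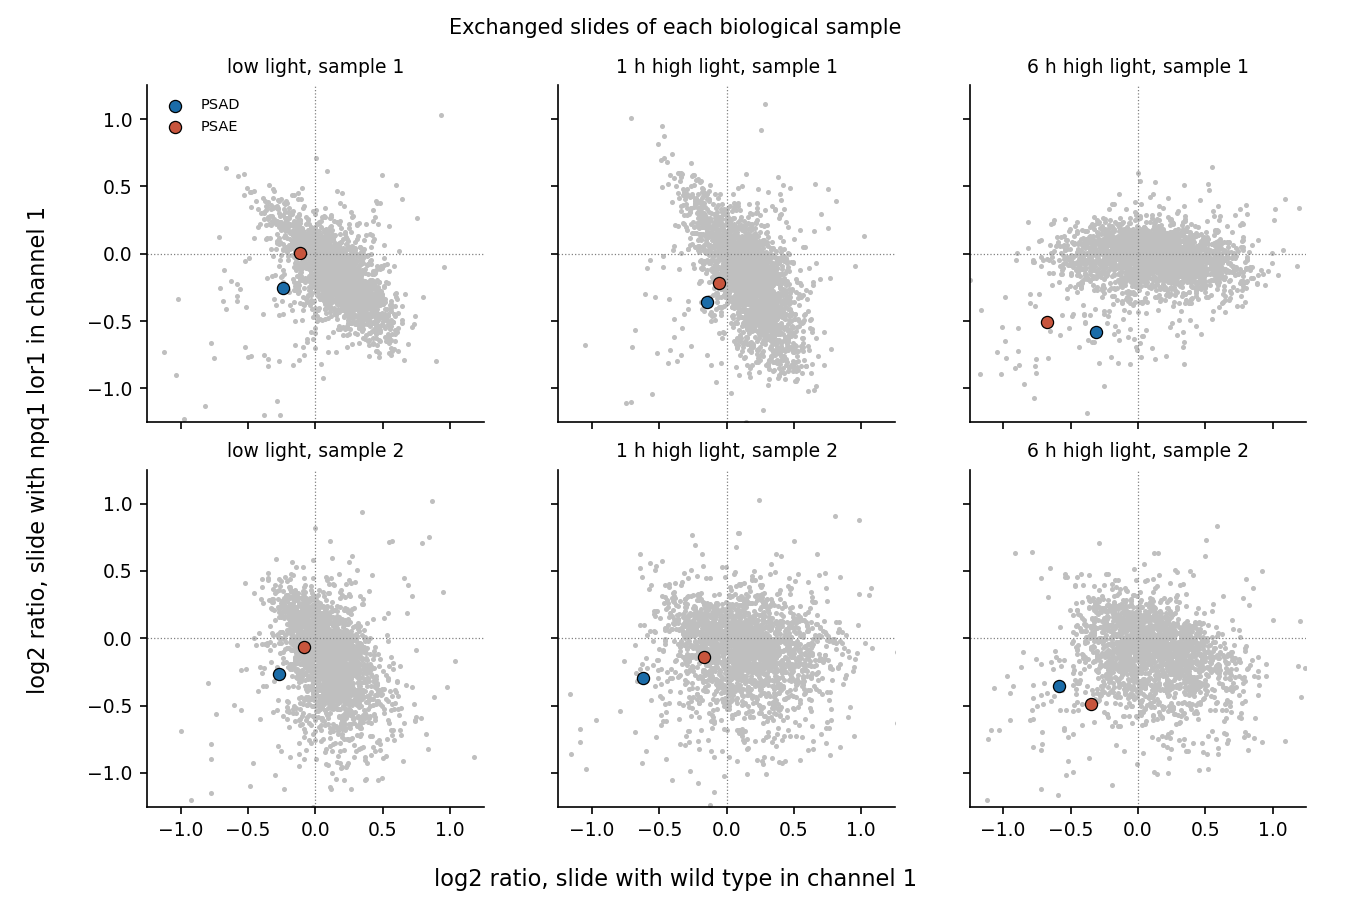
Log2 ratio on the slide with wild type in channel 1 (horizontal axis) against that on the exchanged slide (vertical axis), with 1 panel per biological sample. Grey points are all elements with both values (44 of 14783 points lie outside the axes), and the coloured points are PSAD and PSAE. PSAD sits in the lower left quadrant in all 6 panels and PSAE in 5 of 6, the exception being sample 1 of low light. The genes were picked with the 6 h ratios in view.

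The position of the genes among all elements tested was read from the ratios in the direction the labels describe. In low light 3.13% of 2396 elements and at 1 h 1.45% of 2272 had a more negative ratio than PSAD. Among locus-tagged elements PSAD was the 5th of 94 in low light and the 3rd of 93 at 1 h. PSAE was the 31st of 94 in low light and the 15th of 93 at 1 h, with 27.1% and 9.90% of all elements below it. At 6 h, 1.78% of all elements lay below PSAD and 1.40% below PSAE. The pair was picked with the 6 h ratios in view, so nothing is read from these 6 h places. With the sign turned on slides with npq1 lor1 in channel 1 the shares below PSAD were 24.2%, 20.3% and 34.5% in the order of time and those below PSAE 18.6%, 32.7% and 30.1%, with PSAD 36th of 94 and 21st of 93 locus-tagged elements in low light and at 1 h. The positions at the lower edge thus rest on that direction. The medians over all elements at the 3 time points were -0.01, 0.0090 and 0.03.

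**Figure D4:**
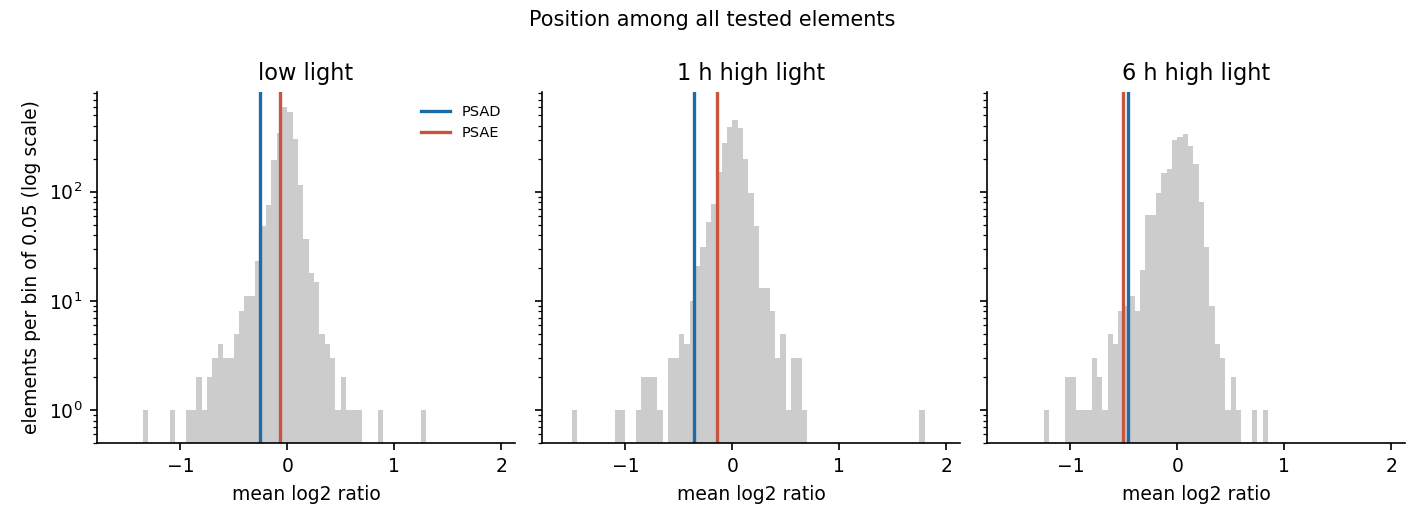
Number of elements (vertical axis, log scale) by mean log2 ratio (horizontal axis, bins of 0.05) at each time point, with vertical lines at PSAD and PSAE. In low light 27.1% of elements lie below the PSAE line and at 6 h 1.40% do. With the sign turned on slides with npq1 lor1 in channel 1, not drawn here, these shares were 18.6% and 30.1%. The genes were picked with the 6 h ratios in view, so nothing is read from their places at 6 h.

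Other genes of photosynthesis were read from a list of 45 locus tags for subunits of the photosystems, their antennae, electron carriers and the chloroplast ATP synthase. The list was written from general knowledge with earlier results in view. The reference gene table pairs these tags with no names, so its loci are given by tag only. Of the other loci, 10 were on the array, with 12 elements, 3 of which belong to CHLRE_06g259900v5. In low light 6 of 11 tested elements had negative ratios, 1 of the negative ones and 0 of the positive ones passed (0.334% over all elements), and the median was -0.12 against -0.01 over all elements. At 1 h 0 of 12 passed in limma (0.704% over all elements), with 6 at an unadjusted p under 0.05, as had 267 of all 2272 elements. There 11 of the 12 ratios were negative and the median was -0.20 against 0.0090 over all elements. At 6 h all 11 ratios were negative, 5 passed (1.68% over all elements passed with a negative ratio), and the median was -0.31 against 0.03 over all elements. These 6 h calls were known when the list was written. The share of negative ratios over all elements is not given here for any time point, nor are the list's ratios with the sign turned. The counts and medians at all 3 time points therefore describe the list and support nothing.

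In the order of the 6 h ratios on that list, PSAE followed CHLRE_08g372450v5 at -0.63 ± 0.09 and CHLRE_03g182551v5 at -0.61 ± 0.33 (SD, n = 2 for each). PSAD came next, before CHLRE_17g720250v5 at -0.41 ± 0.09 and CHLRE_11g467569v5 at -0.31 ± 0.34 (SD, n = 2 for each). Each of these differed from the next by less than the larger SD of the pair, so their order is not settled. Of these neighbours CHLRE_08g372450v5 and CHLRE_17g720250v5 had, like PSAD, a negative mean on all 12 slides. CHLRE_03g182551v5 was negative on 10 of 12 and CHLRE_11g467569v5 on 7 of 12. These counts include the 6 h slides by which the neighbours were named, and the share over all elements is not given here, so they are description only.

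Likeness of pattern was measured as Pearson's r over the 6 biological samples, for the 1895 elements with all 6 values. PSAD and PSAE correlated with r = 0.73. This placed PSAE 180th among the 1894 elements compared with PSAD and 11th among the 74 with a locus tag, and placed PSAD 160th and 9th in the comparison with PSAE. The 6 samples include those of 6 h, which were in view when the pair was picked. Every r with PSAD or PSAE and the ranks are therefore description only. All elements share the slides and the 3 time points, and 43 elements exceeded 0.9 with PSAD and 33 with PSAE. The locus-tagged elements most like PSAD were CHLRE_13g577100v5 (r = 0.95), CHLRE_08g365900v5 (0.90), CHLRE_08g372450v5 (0.88), CHLRE_09g405850v5 (0.87) and CHLRE_12g546150v5 (0.86). Those most like PSAE were CHLRE_02g091700v5 (r = 0.89), CHLRE_16g673650v5 (0.89), CHLRE_13g577100v5 (0.86), CHLRE_08g365900v5 (0.84) and CHLRE_13g590500v5 (0.79). A high r did not mean a like size. CHLRE_13g577100v5, which stood on both lists, had mean ratios of 0.06, -0.12 and -0.28 in the order of time, and CHLRE_08g365900v5, on both lists too, had -0.25, -0.33 and -1.03.

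Across the 20 processing alternatives the 6 h ratios of PSAD lay between -0.54 and -0.45 and those of PSAE between -0.59 and -0.42, with the turned sign left aside. Subtracting the running median of 51 neighbouring spots moved PSAD to -0.54 at 6 h and to -0.19 in low light.

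**Figure D5:**
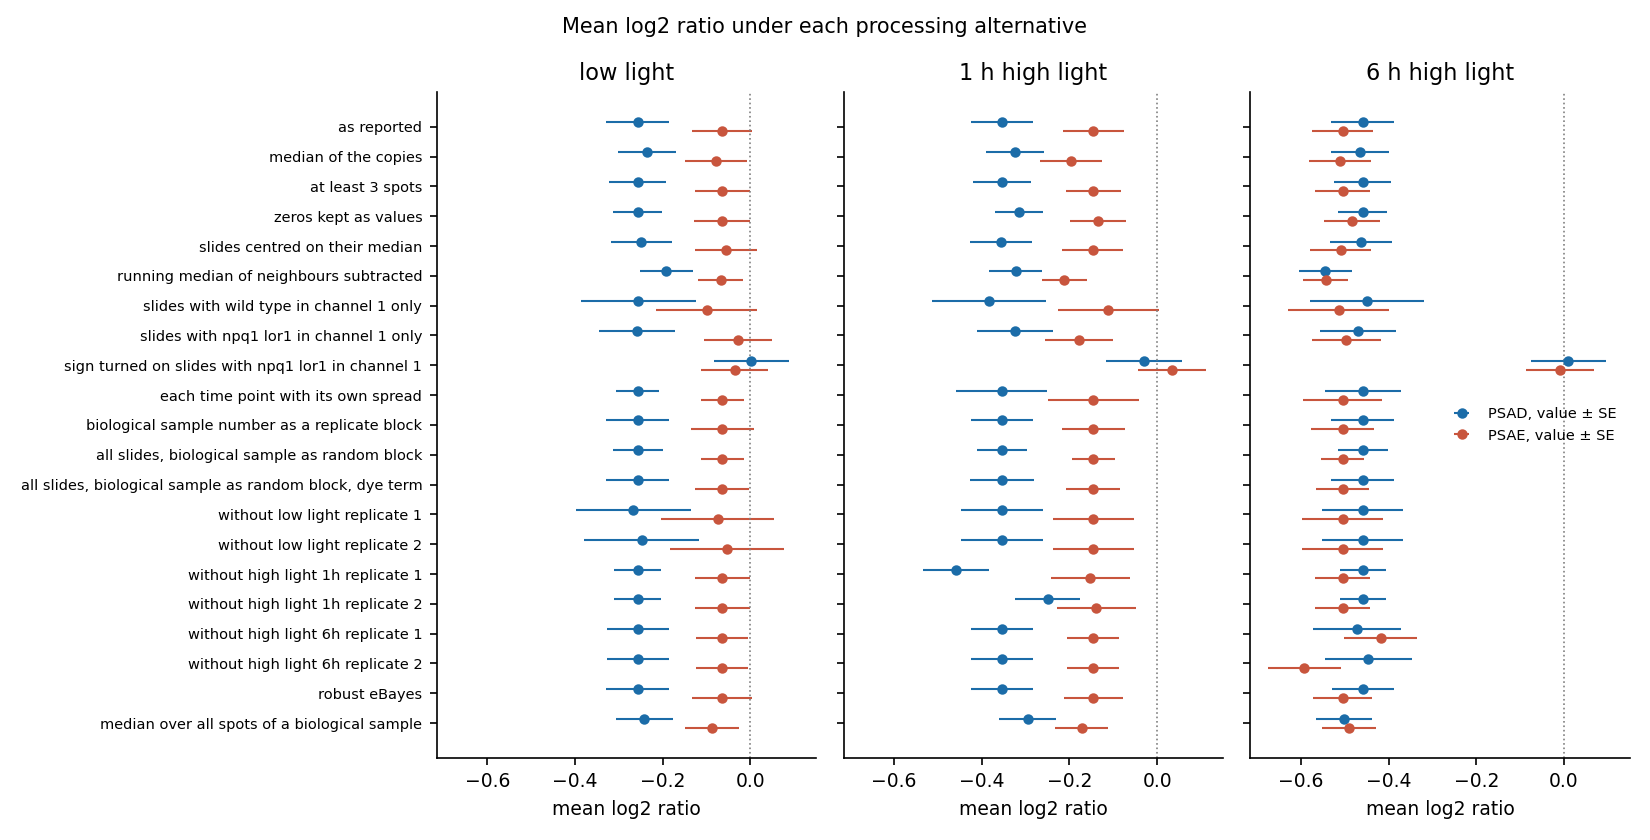
Mean log2 ratio of PSAD and PSAE (horizontal axis) with its SE under the reported processing and each of 20 alternatives (rows), at the 3 time points. The 6 h values of both genes stay between -0.59 and -0.42 in all rows other than the one with the sign turned on slides with npq1 lor1 in channel 1, where they lie at 0.0096 and -0.0090.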

How the data were processed

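Values were log2 ratios of the channels normalized in SNOMAD by the authors, per the labels. Slides with wild type in channel 1 (6 of 12) were deposited as Cy3 over Cy5 and the other 6 as Cy5 over Cy3. SNOMAD settings, background correction and spot filters: not given in the sources used here. Values of exactly 0 were treated as missing. An element's slide value was the mean of at least 2 of its 4 copies, and a biological sample's value the mean of its exchanged slides, which share RNA and count once. Having only 2 biological samples per time point limits the precision. limma 3.58.1 in R 4.3.3 was fitted across all elements with a mean per time point and 1 moderated spread per element (prior degrees of freedom 5.66), two-sided, with Benjamini-Hochberg adjustment over all elements tested and calls at an adjusted p under 0.05. Samples are biological replicates per the labels, which do not say whether these were separate cultures. The p-values therefore speak of these samples alone. They use the spread between them, moderated towards that of all elements. The fit was checked on simulated independent elements without slide or dye effects. The planted changes were larger than the ratios of PSAD and PSAE in low light and at 1 h. That check therefore does not cover such effects or ratios of that size. Loci came from the platform annotation (420 spots with 1 locus, 100 loci, all found in the gene table of assembly Chlamydomonas_reinhardtii_v5.5). Coordinates were not used. The genes and lists were chosen with earlier results of these data known. Named beside PSAD and PSAE were the 5 locus-tagged elements most alike to each over the 6 samples and the 2 list members on either side of each at 6 h. Alternatives covered copies, zeros, centring, neighbouring spots, orientation, spread, blocks and each sample left out, plus 1 chosen after seeing the data, the median over all spots of a sample.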

Additional observations from a re-analysis of the deposited data

How the results depend on the processing

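The ratios were tried under 20 alternatives and the change from low light to 1 h under 19, since a spread of each time point's own gives no fit for it. PSAE passed in none of these tests, and PSAD did not pass for the change. The low light ratio of PSAD, -0.26, passed with each time point fitted on its own (limma adjusted p = 0.0245). It also passed with all 12 slides and the biological sample as a random block (0.0299). Over its alternatives the adjusted p ran from 0.0245 to 1.00. At 1 h the adjusted p ran from 0.00494 to 0.825. The PSAD ratio of -0.35 passed with at least 3 spots (0.0327), with that time point fitted on its own (0.0253) and with all slides without and with a dye term (0.00494 and 0.00910). The SE of the fit to 1 h alone was 0.104 for PSAD and PSAE alike, although their SDs were 0.15 and 0.0099. That spread was thus borrowed from all elements. Slides with npq1 lor1 in channel 1 alone gave -0.32 (limma adjusted p = 0.0441), a setting in which 453 of 2624 elements passed. The slide fits count exchanged slides as separate values, with an estimated correlation of -0.52. At 6 h PSAD moved to -0.54 with neighbouring spots subtracted and to -0.50 with the median over all spots.

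With the sign turned on slides with npq1 lor1 in channel 1, PSAD was 0.0020 in low light and 0.0096 at 6 h, PSAE was 0.034 at 1 h and -0.0090 at 6 h, and the PSAE change to 1 h was 0.069. This setting takes the difference of the exchanged slides in place of their mean. Leaving out 1 biological sample at a time, the PSAD change to 1 h lay between -0.20 and 0.0077, the latter without sample 2 of 1 h, and the PSAD ratio at 1 h between -0.46 and -0.25. A time point left with 1 sample was assumed to vary like the others.

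Whether sample numbers pair samples across time points was not settled. The difference of sample 1 and sample 2 correlated over elements with r = 0.23 for low light against 1 h. It gave r = -0.02 for low light against 6 h, and -0.15 when the high light time points were compared. Elements share slides, so these values cannot decide the question. With the number as a replicate block PSAD was -0.26 in low light (adjusted p = 0.189) and -0.35 at 1 h (0.0597), and the elements called were 27, 24 and 58 in place of 8, 16 and 43 in the order of time. Over all alternatives these counts ran from 0 to 842, 1 to 796 and 21 to 479, highest with the sign turned. The 0 in low light, with 206 elements at an unadjusted p under 0.05, came with the median over all spots. For the change to 1 h the counts ran from 0 to 4.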
